A study of Capra hircus with 6 samples.

Results

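The DNA replication machinery was followed in secondary hair follicle dermal papilla cells (SHF-DPCs) of the cashmere goat with and without all-trans retinoic acid (ATRA), the vitamin A metabolite that binds retinoic acid receptors. Its members are the genes whose annotation in the deposited count table names the KEGG pathway DNA replication, 36 of the 15944 genes listed. The control group held 3 libraries of untreated cells and the ATRA-treated group held 3 libraries of cells given ATRA at 100 µM for 24 h, all from wild-type primary cultures of the skin of goats aged 3 years. By the study's methods the cells came from 3 animals and had been passaged in serum-containing medium, so the libraries describe cultured cells and not the follicle. The control cultures received medium only. The labels put all 6 libraries in a single batch.

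Chromosomal DNA is copied once per cell cycle by a set of complexes that act in order. The MCM2-7 ring is loaded on origins in G1 and unwinds DNA in S phase, polymerase alpha-primase lays down short primers, and polymerases epsilon and delta extend the leading and lagging strands. Replication factor C (RFC) loads the clamp PCNA, replication protein A (RPA) coats single-stranded DNA, and FEN1, DNA2, RNase H and ligase 1 turn Okazaki fragments into a continuous strand. Many of these genes are transcribed under E2F factors as cells enter S phase. In the hair follicle, dermal papilla cells divide little compared with the epithelial matrix above them, whereas in culture they proliferate.

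The control libraries held 36887160 to 38012771 counts in total and the ATRA libraries 35532339 to 36870939. The TMM factors of edgeR, which correct for the mix of abundant genes, lay between 0.842 and 0.851 in the control group and between 1.16 and 1.20 in the ATRA-treated group. Levels are given as normalized CPM, the CPM of a gene on the TMM-scaled library size. Of 15 dermal papilla markers, 11 were measured well enough to be tested, while PROM1, ALPL and CORIN had at most 1 count in any library and SOX2 at most 16. The summed level of the 15 markers was 55262 to 58065 normalized CPM in the control group and 2532 to 2615 in the ATRA-treated group, with 9 lower and 1 higher. Most of the control sum came from COL1A1, VIM and ACTA2 (control means of 27440, 19158 and 6582 normalized CPM), which all fell. The list did not fall alike, since TRPS1 rose (log₂FC 1.42), TWIST1 did not pass (-0.14) and LEF1 had -0.54. Summed levels of markers of other cells were higher in the ATRA libraries. They went from 0.903 to 1.24 up to 6.19 to 9.16 normalized CPM for 5 endothelial markers, most of it PECAM1 (adjusted p = 2.33e-11), while CDH5 had at most 1 count. The endothelial list did not rise alike. TEK rose (log₂FC 0.87) and VWF did not pass (0.065). KDR went the other way, with 5, 6 and 10 counts in the control libraries and 2, 1 and 0 in the ATRA libraries. The other sums took in 2 of 6 melanocyte, 7 of 8 keratinocyte and 3 of 5 leukocyte markers. The melanocyte sum went from 16.1 to 17.6 up to 32.2 to 39.0. The keratinocyte sum went from 3.11 to 4.98 up to 5.40 to 6.02, and the leukocyte sum from 2.69 to 5.86 up to 10.75 to 11.98. Each of these sums rested on 1 gene that rose, MITF, KRT10 and CD68, and did not hold for the lists as a whole. PMEL fell (log₂FC -0.90, adjusted p = 7.61e-05), KRT14 had 20, 14 and 10 counts in the control libraries and 3, 0 and 0 in the ATRA libraries, KRT5 had 2, 7 and 3 and 0, 0 and 0, and CSF1R and CD3E had at most 7 counts. The keratinocyte marker KRT15, the melanocyte markers TYR, DCT, MLANA and SOX10 and the leukocyte markers PTPRC and LYZ were not analysed here. The part of these shifts in the results on replication genes was not tested. In bulk RNA, fewer cells in S phase and less replication RNA per cell cannot be told apart.

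Most of the replication machinery was downregulated in the ATRA-treated group. Of the 36 members, 35 had enough counts to be tested, and RPA4 did not. Between the groups, 29 members fell and 4 rose at an adjusted p under 0.05 (edgeR quasi-likelihood test, two-sided, Benjamini-Hochberg over 12588 genes), whereas 38.7% of all genes tested fell and 40.9% rose, 79.7% in either direction. When a |log₂FC| above 1 was also required, with p taken before adjustment, 21 members fell and 1 rose, against 17.3% and 13.7% of all genes. All ATRA libraries lay below all control libraries for 29 of the 35 and above them for 5, against 39.0% and 41.2% of all genes. The median log₂FC of the 35 members was -1.16, beside 0.038 over all genes tested. Scaling by library size only, which moves the median of all genes to 0.52, gave 23 members lower and 7 higher and a median of -0.68, so that the members lay 1.20 below the median of all genes under either scaling. This scaling raised the log₂FC by 0.46 to 0.48 in the 89 genes followed one by one, which are the tested members and part of the list genes. Together the 36 genes took 1219 to 1252 CPM in the control libraries and 742 to 763 in the ATRA libraries before scaling.

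**Figure D1:**
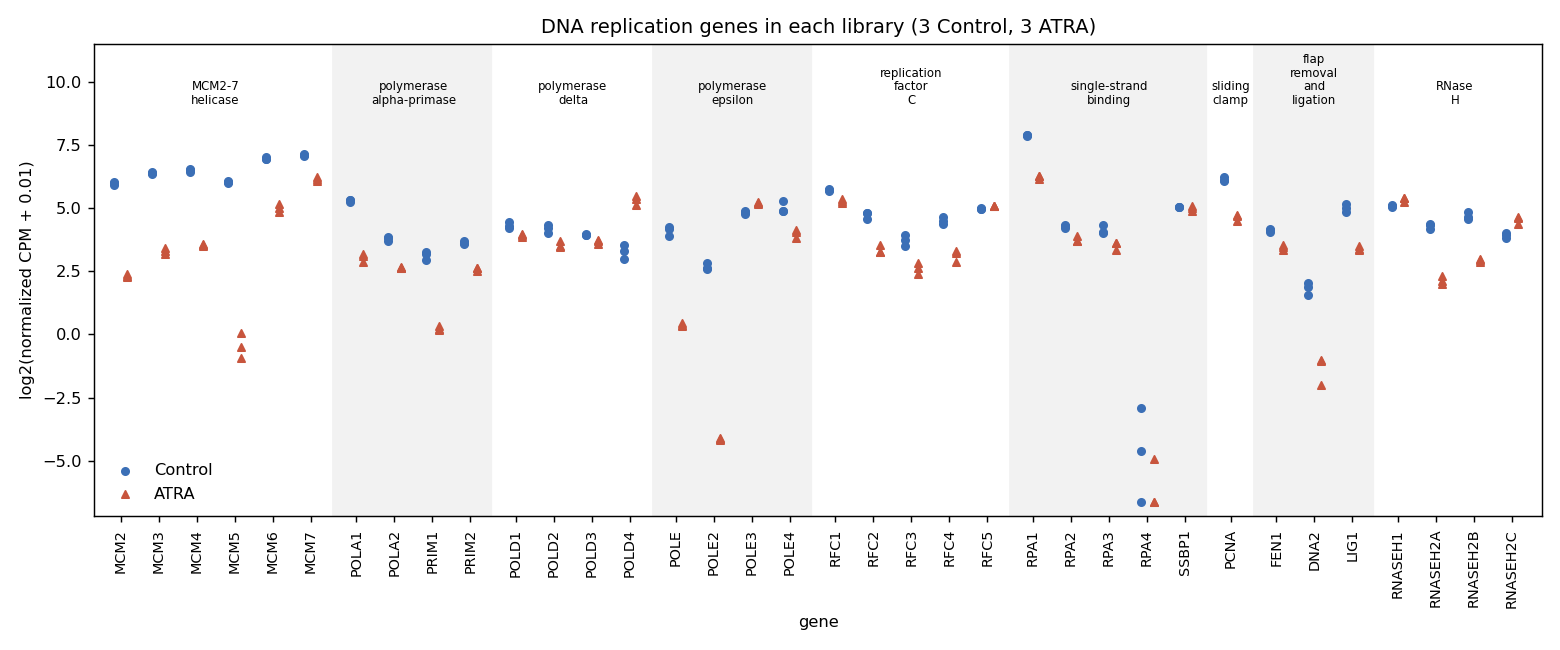
Level of each of the 36 DNA replication genes in the 3 control libraries (circles) and the 3 ATRA libraries (triangles), as log2(normalized CPM + 0.01), grouped by complex; heights of different genes are not corrected for gene length. The ATRA libraries sit below the control libraries for 29 genes, with POLE2 and MCM5 the furthest below, and above them for POLD4, POLE3, RFC5, RNASEH1 and RNASEH2C.

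All 6 subunits of the MCM2-7 helicase fell, but by very different amounts. MCM5 had 64.3, 65.6 and 66.6 normalized CPM in the control libraries and 0.694, 1.04 and 0.507 in the ATRA libraries, on 30, 46 and 21 counts. The fitted fall was 86.6-fold (log₂FC -6.44, SE 0.133, adjusted p = 2.83e-18), the steepest of the 6. MCM2, which with MCM5 forms the gate through which the ring opens around DNA, had 65.01, 60.5 and 63.3 normalized CPM in the control libraries and 4.88, 4.99 and 5.22 with ATRA (log₂FC -3.65, SE 0.0820, adjusted p = 8.44e-18). Both genes lay far below the control range in every ATRA library. MCM3 dropped from 84.1 ± 2.14 to 9.83 ± 0.764 normalized CPM (mean ± SD of 3 libraries per group, log₂FC -3.10, SE 0.0770, adjusted p = 3.63e-17). MCM4 decreased from 89.8 ± 4.05 to 11.7 ± 0.238 normalized CPM (mean ± SD of 3 libraries per group, log₂FC -2.94, SE 0.0717, adjusted p = 2.67e-17). The catalytic core is formed by MCM4, MCM6 and MCM7, and the latter pair kept more of their level. MCM6 had 124, 125 and 130.5 normalized CPM in the control libraries and 29.1, 36.1 and 32.2 with ATRA (log₂FC -1.96, SE 0.0737, adjusted p = 1.82e-14). For MCM7 the values were 142, 136 and 136 and then 74.98, 67.02 and 70.5 (log₂FC -0.96, SE 0.0601, adjusted p = 4.13e-11), so that 51.3% of the control level remained, beside 1.14% for MCM5. The groups did not overlap for any of the 6 subunits, where 80.1% of all genes tested do not overlap either. The summed level of the 6 genes was 559 to 572 normalized CPM in the control libraries and 129.9 to 131.7 in the ATRA libraries.

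Polymerase alpha-primase, which starts every new strand, was lower in all 4 subunits. The RNA-making subunit gene PRIM1 had 9.15, 9.58 and 7.75 normalized CPM in the control libraries and 1.11, 1.25 and 1.16 with ATRA (log₂FC -2.91, SE 0.158, adjusted p = 5.19e-12). The DNA-making catalytic subunit gene POLA1 had 38.2, 40.002 and 40.03 and then 7.20, 9.05 and 8.55 normalized CPM (log₂FC -2.25, SE 0.0909, adjusted p = 5.41e-14). Their partners fell less. POLA2, the accessory subunit, went from 13.9 ± 0.816 to 6.20 ± 0.103 normalized CPM (mean ± SD of 3 libraries per group, log₂FC -1.16, SE 0.103, adjusted p = 7.01e-09), and PRIM2, the large primase subunit, went from 12.3 ± 0.473 to 6.03 ± 0.281 normalized CPM (mean ± SD of 3 libraries per group, log₂FC -1.03, SE 0.105, adjusted p = 5.34e-08). The groups did not overlap for any of the 4 genes, as for 80.1% of all genes tested. In both the polymerase and the primase pair the catalytic subunit had the lower log₂FC.

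Polymerase epsilon lost most of the RNA of its catalytic subunit POLE, which had 18.1, 14.96 and 18.8 normalized CPM in the control libraries and 1.36, 1.27 and 1.26 in the ATRA libraries (log₂FC -3.73, SE 0.138, adjusted p = 1.50e-14). POLE2, the subunit that ties the polymerase to the helicase, had 191, 231 and 193 counts in the control libraries and 2, 2 and 2 in the ATRA libraries. The control level was higher by 138-fold, with a 95% counting interval from 63.1 to 378 (log₂FC -7.01, SE 0.293, adjusted p = 9.60e-14), and on log2 of CPM plus 1, which damps low values, the log₂FC was -2.83. The histone-fold subunits of the same enzyme, which also serve in chromatin complexes, kept more of their level. POLE4 dropped from 32.9 ± 5.30 to 16.1 ± 1.70 normalized CPM (mean ± SD of 3 libraries per group, log₂FC -1.03, SE 0.107, adjusted p = 8.51e-08), and POLE3 rose from 28.4 ± 1.05 to 36.8 ± 0.95 normalized CPM (mean ± SD of 3 libraries per group, log₂FC 0.37, SE 0.0708, adjusted p = 0.000102).

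Polymerase delta changed little in 3 of its 4 subunits. The catalytic subunit gene POLD1 had 19.8, 18.3 and 21.9 normalized CPM in the control libraries and 15.9, 14.6 and 15.1 with ATRA (log₂FC -0.40, SE 0.0898, adjusted p = 0.000544), POLD2 had a log₂FC of -0.63 (SE 0.101, adjusted p = 1.64e-05), and POLD3 had a log₂FC of -0.28 (SE 0.0893, adjusted p = 0.00892). These 3 subunits fell under TMM scaling. With library size only, POLD1 had a log₂FC of 0.079 that did not pass and POLD2 one of -0.15 that no longer passed. POLD3 had 0.20 there and passed as higher (edgeR quasi-likelihood test, adjusted p = 0.0429). POLD4, the small subunit that is degraded after DNA damage and whose loss slows the enzyme, moved the other way. It had 11.6, 9.83 and 7.84 normalized CPM in the control libraries and 44.6, 35.3 and 41.1 in the ATRA libraries, a rise of 4.14-fold (log₂FC 2.05, SE 0.118, adjusted p = 2.05e-11). The ATRA libraries all lay above the control libraries. POLD4 was the single member to rise by more than 2-fold under TMM scaling, where library size only gave 2 such members, and with it the summed level of the 4 subunits was 59.6 to 67.0 normalized CPM in the control group and 74.6 to 85.3 in the ATRA-treated group.

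The clamp and its loader were partly lowered. PCNA, the ring that holds polymerases on DNA, had 69.4, 74.8 and 66.7 normalized CPM in the control libraries and 26.2, 22.4 and 26.1 with ATRA, and 35.5% of the level remained (log₂FC -1.50, SE 0.0769, adjusted p = 2.21e-12). Of the 4 small RFC subunits, RFC2 decreased from 26.7 ± 2.42 to 10.3 ± 1.07 normalized CPM (mean ± SD of 3 libraries per group, log₂FC -1.38, SE 0.0979, adjusted p = 2.80e-10), RFC4 had a log₂FC of -1.37 (SE 0.110, adjusted p = 1.74e-09) and RFC3 one of -1.12 (SE 0.131, adjusted p = 3.19e-07). RFC5 stood apart from them, with 31.9, 31.5 and 30.9 normalized CPM in the control libraries and 33.99, 34.3 and 34.02 in the ATRA libraries. Its ATRA libraries all lay above the control libraries, but the difference did not pass (log₂FC 0.12, SE 0.0686, adjusted p = 0.122). RFC5 passed as higher under upper-quartile scaling (0.19), with library size only (0.60) and with R's t.test function (0.11, on log2 of CPM plus 1). The large subunit RFC1, which is replaced by other proteins in the loaders of checkpoint and cohesion complexes, had a log₂FC of -0.46 (SE 0.0673, adjusted p = 5.63e-06) under TMM scaling and of 0.020 with library size only.

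RPA binds single-stranded DNA as a trimer, and its subunits did not fall alike. The large subunit gene RPA1 had 238, 235 and 230.4 normalized CPM in the control libraries and 70.9, 77.3 and 77.5 with ATRA (log₂FC -1.64, SE 0.0577, adjusted p = 6.82e-15). RPA2, the subunit phosphorylated in S phase and after damage, fell from 19.4 ± 0.888 to 13.7 ± 1.19 normalized CPM (mean ± SD of 3 libraries per group, log₂FC -0.51, SE 0.0907, adjusted p = 5.66e-05), and RPA3, the small subunit, fell from 17.6 ± 2.04 to 11.6 ± 1.18 normalized CPM (mean ± SD of 3 libraries per group, log₂FC -0.60, SE 0.106, adjusted p = 4.31e-05). With library size only, RPA2 and RPA3 had a log₂FC of -0.026 and -0.13 and did not pass. RPA4, a relative of RPA2 in the same annotation, held 0, 4 and 1 counts in the control libraries and 1, 0 and 0 in the ATRA libraries, too few to compare. SSBP1 belongs to the annotation but works in mitochondria, where it coats single-stranded mitochondrial DNA. Its level was 32.9, 32.6 and 32.7 normalized CPM in the control libraries and 33.5, 29.3 and 32.5 in the ATRA libraries, with overlapping groups (log₂FC -0.045, SE 0.0739, adjusted p = 0.585). With library size only SSBP1 had a log₂FC of 0.43.

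Okazaki fragment maturation held both falls and rises. DNA2, the nuclease that trims long flaps, fell the most, from 127, 95 and 117 counts in the control libraries to 21, 21 and 10 in the ATRA libraries (log₂FC -3.13, SE 0.269, adjusted p = 4.57e-09, or -1.70 on log2 of CPM plus 1). LIG1, which seals the nicks, had 35.5, 31.7 and 28.7 normalized CPM in the control libraries and 10.2, 10.5 and 11.2 with ATRA (log₂FC -1.59, SE 0.0920, adjusted p = 1.32e-11). FEN1, the main flap nuclease, fell less, from 17.4 ± 0.658 to 10.9 ± 0.805 normalized CPM (mean ± SD of 3 libraries per group, log₂FC -0.68, SE 0.0929, adjusted p = 2.23e-06). RNase H2 removes ribonucleotides and primer RNA, and its 3 subunits split. The catalytic subunit gene RNASEH2A had 19.9, 20.8 and 18.1 normalized CPM in the control libraries and 4.97, 3.97 and 4.35 with ATRA (log₂FC -2.15, SE 0.111, adjusted p = 2.37e-12). RNASEH2B, the subunit that binds PCNA, fell from 26.1 ± 2.48 to 7.63 ± 0.399 normalized CPM (mean ± SD of 3 libraries per group, log₂FC -1.77, SE 0.0961, adjusted p = 4.95e-12). The third subunit has a structural role. RNASEH2C rose, with 15.5, 16.3 and 14.2 normalized CPM in the control libraries and 24.5, 20.8 and 25.4 in the ATRA libraries (log₂FC 0.62, SE 0.0933, adjusted p = 7.57e-06). RNASEH1, a separate enzyme that also acts in mitochondria, rose from 34.03 ± 1.08 to 40.9 ± 2.75 normalized CPM (mean ± SD of 3 libraries per group, log₂FC 0.27, SE 0.0729, adjusted p = 0.00290).

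**Figure D2:**
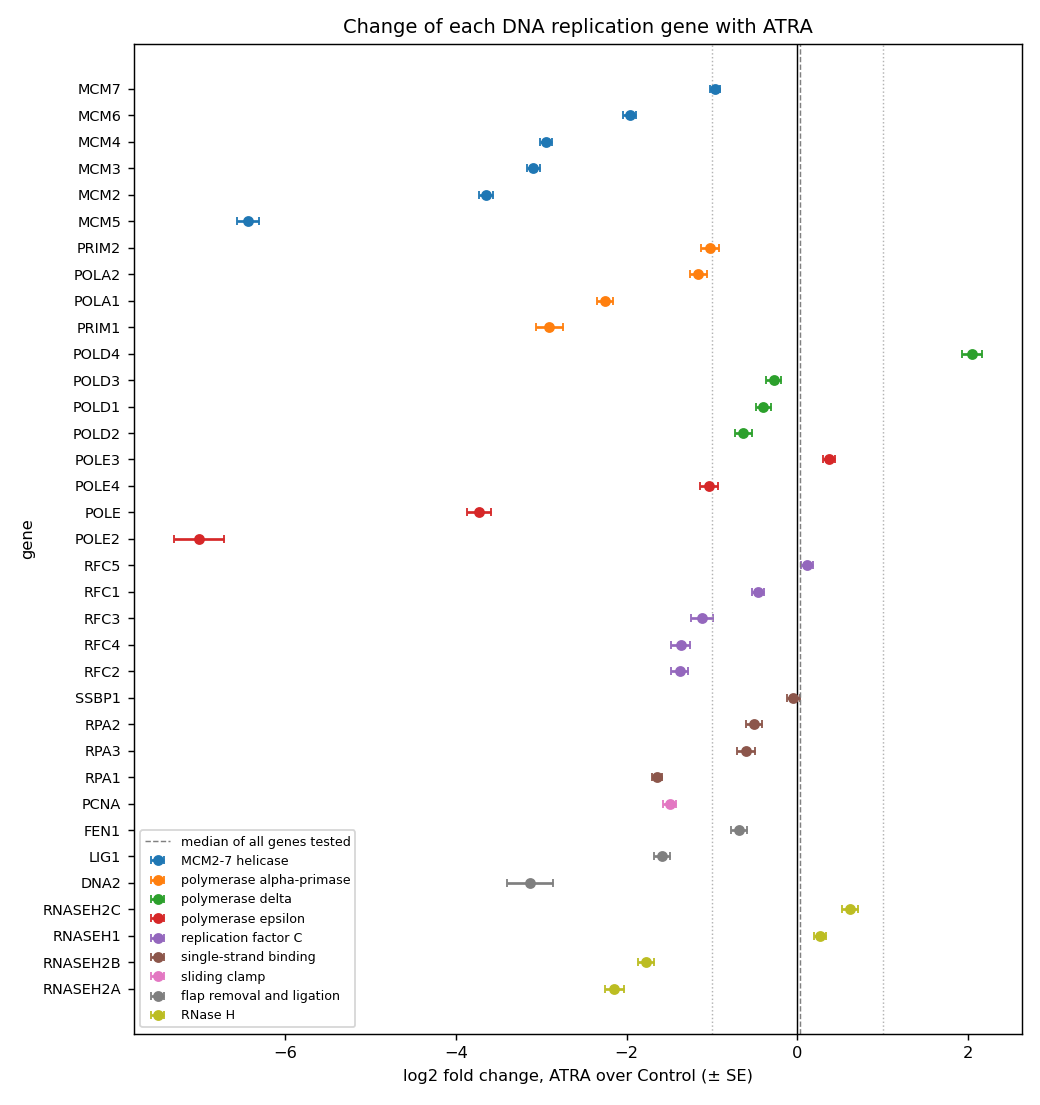
Log2 fold change of ATRA over control for the 35 tested DNA replication genes, with the standard error of the fit, ordered within each complex; dotted lines mark a change of 1 and the dashed line marks the median of all genes tested, 0.038. The MCM genes spread from -6.44 to -0.96 and the polymerase genes from -7.01 to 2.05, whereas the RFC genes lie between -1.38 and 0.12.

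Subunits of a complex act together, so 22 ratios between 2 subunits were also compared within each library, where the scaling between libraries cancels. The ratio of counts was put on a log2 scale with 0.5 added to each count. For 20 of the 22 pairs the control and ATRA libraries did not overlap, where 80.1% of single genes do not overlap either. No such share was computed for ratios of other genes. Pairs with the same denominator, such as those to MCM2, are not independent of each other. No pair could pass an adjusted threshold, since an exact permutation test of 3 libraries against 3 cannot go below p = 0.1 (two-sided), which is 0.11 after Benjamini-Hochberg adjustment over the 22 pairs. The change exceeded 1 on the log2 scale for 13 pairs. The ratio of MCM7 to MCM2 went from 1.13 ± 0.0379 to 3.81 ± 0.109 on the log2 scale (SD, n = 3 each), a 6.41-fold shift, while that of MCM5 to MCM2 went from 0.058 ± 0.0679 to -2.79 ± 0.543 in the other direction. MCM3 and MCM4 kept closer to MCM2, with shifts of 0.55 and 0.70.

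In polymerase epsilon the ratio of POLE3 to POLE shifted by 4.09, that of POLE4 to POLE by 2.69 and that of POLE2 to POLE by -3.07 on the log2 scale, or by -1.71 with 5 added to each count. The ratio of POLD4 to POLD1 shifted by 2.45 and that of RNASEH2C to RNASEH2A by 2.77. Beside RPA1, the ratios of RPA2 and RPA3 shifted by 1.13 and 1.04. Of the 22 ratios, those of RFC2 to RFC4 and POLD3 to POLD1 overlapped between the groups. The former shifted by -0.0079 (exact permutation p = 1, two-sided) and the latter by 0.12 (exact permutation p = 0.4, two-sided).

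**Figure D3:**
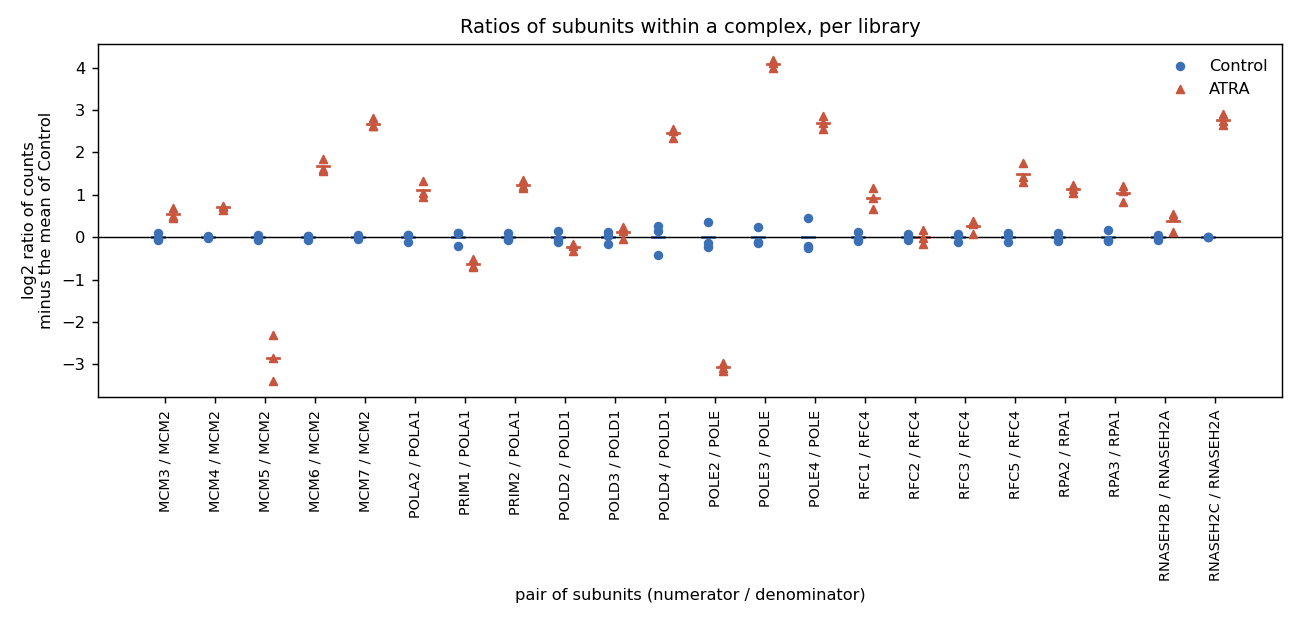
Log2 ratio of counts of 2 subunits in each library, minus the mean of the control libraries, for 22 pairs; circles are control libraries, triangles are ATRA libraries and short bars are group means. The ratios to MCM2, POLE and RNASEH2A fan out by up to 4.09 with ATRA, whereas RFC2 stays level with RFC4.

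The members also carry other KEGG annotations, which the choice of genes did not use. The 7 members annotated to the cell cycle pathway, the 6 MCM genes and PCNA, all fell, with a median log₂FC of -2.94. Of the 9 members that carry none of the cell cycle and DNA repair annotations examined, 7 fell and 2 rose, with a median of -1.77. Of 20 tested members that share an annotation to excision repair, mismatch repair or homologous recombination, 16 fell and 2 rose, with a median of -0.66. Among all genes tested, 38.7% fell and 40.9% rose. The repair-annotated members include all of polymerase delta, RFC and RPA, so these groups follow the complexes and are no separate evidence.

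Counts of some members could include reads of a gene that overlaps them, since the counting was not stated to use strand. In the goat reference ARS1.2, which may differ from the build used for counting, 6 tested members overlap another listed gene. RFC5 overlaps WSB2, which had a log₂FC of 1.34, RFC1 overlaps WDR19 (0.91), RFC4 overlaps EIF4A2 (0.49), MCM7 overlaps AP4M1 (0.26), RNASEH2C overlaps KAT5 (0.19), and POLA1 overlaps DIAPH2 (-1.67). The values of these 6 members are therefore uncertain, and the part of the overlap in them was not tested.

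The wider replication programme was read from 8 further lists with 68 tested genes. Of these, 37 fell and 17 rose at an adjusted p under 0.05, beside 38.7% and 40.9% of all genes, with a median log₂FC of -0.28. With library size only 34 rose and the median was 0.19. On log2 of CPM plus 1 the falls of genes with few ATRA counts were smaller, such as -3.13 for CDC6 and -2.45 for TICRR. Of 10 licensing genes 5 fell and 3 rose (5 with library size only), and the factors that load the MCM ring were among those that fell. CDC6 had 271, 243 and 263 counts in the control libraries and 2, 3 and 1 in the ATRA libraries, a control level higher by 175-fold, with a 95% counting interval from 79.8 to 477 (adjusted p = 2.25e-14). ORC1, the origin recognition subunit that is made anew in each cycle, had 292, 316 and 278 counts and then 18, 25 and 9 (log₂FC -4.51, SE 0.214, adjusted p = 6.39e-13), and CDT1, which brings the MCM ring to the origin, had 377, 438 and 345 and then 18, 25 and 29 (log₂FC -4.43, SE 0.181, adjusted p = 6.71e-14). The other origin recognition subunits did not follow ORC1 alike. ORC6 had a log₂FC of -1.98, ORC2, ORC3 and ORC4 rose with 0.27, 0.37 and 0.64, and ORC5 had 0.026 (adjusted p = 0.746). ORC3 no longer passed without Control replicate 3 (0.27, adjusted p = 0.0656) or without ATRA replicate 1 (0.29, adjusted p = 0.0558), and with R's t.test function ORC2 (adjusted p = 0.0695) and ORC3 (adjusted p = 0.0649) did not pass, which left 1 licensing gene higher. GMNN, the inhibitor of CDT1, had a log₂FC of -0.093 (SE 0.0989, adjusted p = 0.392) under TMM scaling and of 0.38 with library size only.

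Origin firing genes fell in 9 of 13 cases and rose in 1 (4 with library size only), beside 38.7% and 40.9% of all genes. Their median was -1.31. All 4 GINS genes, whose products join MCM2-7 and CDC45 in the active helicase, fell, from GINS4 at -3.94 and GINS1 at -3.52 to GINS3 and GINS2 at -1.93 and -1.31. TICRR, a CDK target needed to bring CDC45 to origins, fell the most, with 166, 147 and 196 counts in the control libraries and 6, 4 and 10 in the ATRA libraries (log₂FC -5.07, SE 0.283, adjusted p = 7.64e-12). CDC45, the third component of the active helicase, had a log₂FC of 0.04 (SE 0.115, adjusted p = 0.756), which turned to -0.065 without Control replicate 2 and to -0.025 without ATRA replicate 1, and passed as higher with library size only (0.52, adjusted p = 0.000553). The kinase subunit gene DBF4 had -0.12 (adjusted p = 0.161), and MTBP, the partner of TICRR, rose with 0.35. DONSON had 0.15 (adjusted p = 0.0789) and passed as higher with upper-quartile scaling (0.23, adjusted p = 0.0107) and with library size only (0.63, adjusted p = 9.25e-07).

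At the fork, 6 of 11 tested protection and checkpoint genes fell and 3 rose, beside 38.7% and 40.9% of all genes. Library size only gave 6 higher. MCM8 fell by 4.20 on the log2 scale (SE 0.231, adjusted p = 6.03e-12), while MCM9, its partner in a separate repair helicase, rose by 1.15 (SE 0.0858, adjusted p = 6.25e-10). CLSPN and WDHD1, which link the helicase to the checkpoint and to polymerase alpha, had a log₂FC of -2.62 and -2.49. ATR and RTEL1 had -0.008 and -0.084 and did not pass, and ATRIP and ETAA1 rose by 0.35 and 0.41. Of the alternative clamp loaders and the unloader, CHTF18 and ATAD5 fell with -5.67 and -2.86 and DSCC1 with -0.48 (-0.0053 with library size only, adjusted p = 0.957), RAD17 rose with 0.36, and CHTF8 had 0.065 (adjusted p = 0.385).

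Topoisomerases and histone chaperones include paralogs that are tied to proliferation to different degrees. Of 5 topoisomerase genes 1 fell and 1 rose (4 with library size only), and of 6 histone deposition genes 5 fell and 1 rose (3 and 2 with library size only). Of all genes tested, 38.7% fell and 40.9% rose. TOP2A, the topoisomerase of dividing cells, had 159, 168 and 169.8 normalized CPM in the control libraries and 1.97, 2.29 and 1.16 with ATRA (log₂FC -6.51, SE 0.125, adjusted p = 3.42e-18), whereas TOP2B had a log₂FC of -0.12 (SE 0.0524, adjusted p = 0.0502) and TOP1 one of 0.015 (SE 0.0630, adjusted p = 0.836). TOP3B rose by 0.73 (SE 0.102, adjusted p = 2.81e-06) and TOP3A had -0.012 (adjusted p = 0.877). The call on TOP2B depended on the setting, since it passed as lower with DESeq2 (-0.14, adjusted p = 0.0181), with the replicate block (-0.12, adjusted p = 0.0497), without Control replicate 2 (-0.13, adjusted p = 0.0483) and without ATRA replicate 2 (-0.14, adjusted p = 0.0174), and passed as higher with library size only (0.36). The histone chaperone ASF1B had 507, 420 and 468 counts in the control libraries and 10, 6 and 5 in the ATRA libraries (log₂FC -6.46, SE 0.210, adjusted p = 2.06e-15), whereas ASF1A rose by 1.09 (SE 0.105, adjusted p = 2.40e-08). The large subunit of chromatin assembly factor, CHAF1A, fell with a log₂FC of -3.44, RBBP7 with -1.22, CHAF1B with -0.45 and RBBP4 with -0.24. CHAF1B and RBBP4 were not followed one by one under the other settings. With library size only this list held 3 lower and 2 higher genes, so these 2 falls may not hold under that scaling.

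Genes of mitochondrial DNA replication did not fall together. Of 6 tested, POLG2, TFAM and POLG rose, POLRMT and MGME1 fell, and PRIMPOL did not pass, with a median log₂FC of 0.27 (0.75 with library size only). Over all genes tested, 38.7% fell and 40.9% rose. TFAM had 0.39, which was 0.21 without ATRA replicate 2 and did not pass with R's t.test function (adjusted p = 0.166). POLRMT had -0.55, which did not pass with library size only (-0.072, adjusted p = 0.431), and PRIMPOL had 0.18, which passed as higher with upper-quartile scaling (0.26, adjusted p = 0.0173). POLG2, the accessory subunit of the mitochondrial polymerase, rose by 1.32 (SE 0.0959, adjusted p = 3.83e-10), and the catalytic subunit gene POLG rose by 0.36 (SE 0.0615, adjusted p = 3.49e-05). The translesion and repair polymerases also split, with 6 of 12 lower and 4 higher, beside 38.7% and 40.9% of all genes. Library size only gave 2 lower and 7 higher, and 4 were lower without any one control library or without ATRA replicate 1 or 2. POLQ fell by 3.30 on the log2 scale and POLM by 1.62, whereas POLI, POLB, POLK and MAD2L2 rose by 1.10, 0.84, 0.44 and 0.37. POLL and REV3L had 0.16 and 0.079 and did not pass.

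For comparison with another set of cell cycle genes, 20 mitotic genes were read from the same fit. All 20 fell, beside 38.7% of all genes tested, with a median log₂FC of -5.19. The range ran from -10.21 for ASPM, a spindle protein, through -8.54 for the kinase TTK and -8.11 for the kinesin KIF20A, to -2.42 for NCAPG, a condensin subunit. ASPM had 3, 4 and 0 counts in the ATRA libraries and TTK had 2, 1 and 4. The replication members ranged from -7.01 to 2.05, and 8 of the 35 fell further than NCAPG (MCM2, MCM3, MCM4, MCM5, PRIM1, POLE, POLE2 and DNA2). On log2 of CPM plus 1 the median was -4.12 for the mitotic genes and -1.04 for the members. PRIM1 then had -2.17 and DNA2 -1.70. NCAPG was not followed on that scale, so the count of members below it may differ there. The difference between the lists was not tested.

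**Figure D4:**
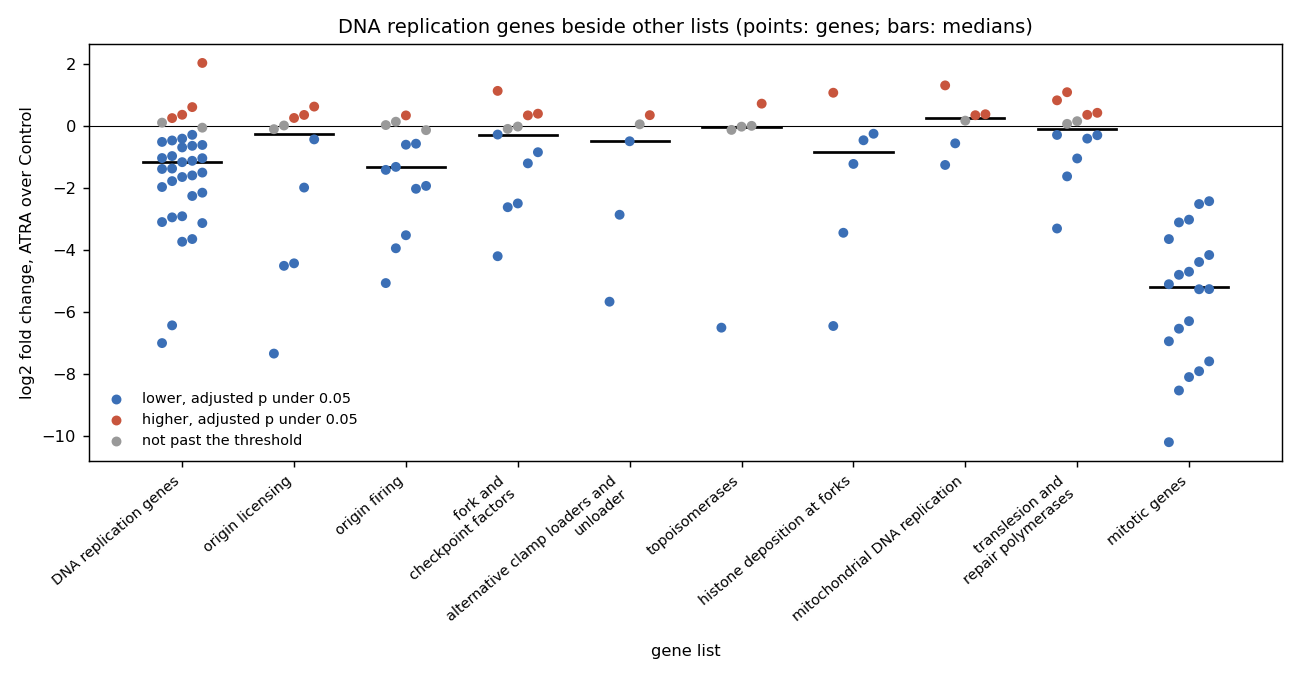
Log2 fold change of ATRA over control for each tested gene (points) in the DNA replication annotation and in 9 further lists, with the list median as a bar; blue points fell and red points rose at an adjusted p under 0.05, and grey points did not pass. The mitotic genes all lie at or below -2.42, whereas each replication list also holds genes near or above 0, and the mitochondrial list has a median of 0.27.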

How the data were processed

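Libraries were made from poly(A) RNA. The authors trimmed and filtered the reads (fastp, TrimGalore) and deposited raw counts per gene beside GO and KEGG terms. The submitters' processing notes name HISAT2, featureCounts and DESeq2. The genome build, annotation and strand setting are not given in the sources used here. Every per-sample column was used, and all 15944 gene names matched the RefSeq table of ARS1.2.

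Genes passing edgeR's filterByExpr (12588) were scaled by TMM and tested with the robust quasi-likelihood test over all 6 libraries, two-sided, with Benjamini-Hochberg adjustment over all genes tested. The standard error (SE) was derived from the log₂FC and the F statistic. R's t.test function, which the methods of the study name, was an alternative because the values are counts. Floors and counting intervals (95%, conditional binomial) cover counting error only. Nothing says that a replicate number marks one animal, and the deviations of same-numbered libraries correlated at 0.189, -0.0066 and -0.159, so the libraries were not paired. P-values measure the spread between these cultures. No pair of libraries within a group agreed within sampling noise (chi-square per degree of freedom 5.16 to 19.2). The member, list and pair choices were made with earlier results of these data known. Every member is described. From each further list the text names the 3 largest changes and genes that rose or did not pass, and other list genes with a value were named after their values were seen. Tests were checked on simulated data in which a small share of genes changed, equally many up and down. In the real data 79.7% of all genes passed, so that check does not cover the scaling or the error rate in this setting. A planned search of member promoters for motifs was not run, and sequences were not analysed here. Versions were R 4.3.3, edgeR 4.0.16, DESeq2 1.42.0 and matplotlib 3.10.9.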

Additional observations from a re-analysis of the deposited data

How the results depend on the processing

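The alternatives were RLE, upper-quartile and library-size scaling, no filter or a minimum CPM of 1 in 3 libraries, DESeq2, R's t.test function, a replicate block, leaving out each library and, for the ratios, 1 or 5 in place of 0.5 added to each count. The replicate numbers do not pair the libraries. With the replicate block 29 members fell and 4 rose as without it, with 21 and 1 beyond a log₂FC of 1. The medians were -1.16 for the members and -0.29 for the other replication genes. Among the latter, 37 were lower and 17 higher (25 and 4 beyond 1). For 20 of 22 ratios the 3 differences between same-numbered libraries had the same sign, which is a different measure from overlap. A block changed the call of TOP2B (-0.12). Leaving out a library left 29 members lower and 4 higher, with 20 to 21 and 1 beyond 1.

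Scaling by library size only moved most values. It gave 7 members higher, 2 of them beyond 1, and a median of -0.68, and among the other replication genes 34 higher, 7 of them beyond 1, and a median of 0.19. The medians turned to 0.14 for polymerase delta, 0.22 for licensing, 0.21 for fork factors, 0.47 for topoisomerases and 0.38 for translesion polymerases. Among the genes followed one by one, the log₂FC turned positive for POLD1 (0.079), POLD3 (0.20), RFC1 (0.020), SSBP1 (0.43) and GMNN (0.38). It also turned positive for DBF4 (0.35), ATR (0.47), RTEL1 (0.39), TOP2B (0.36) and TOP3A (0.47). This follows from the construction of library-size scaling, which shifts all genes by about the same amount.

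Genes with a log₂FC near 0 changed sign elsewhere. Upper-quartile scaling gave 0.064 for the topoisomerase median and TOP3A, 0.032 for SSBP1 and 0.069 for ATR. The stricter filter gave 0.00063 for the topoisomerase median and TOP3A, 0.0049 for ATR and 0.092 for the translesion median, with fewer genes tested. RLE scaling and DESeq2 both gave -0.0056 for TOP1. Leaving out a library gave ranges of -0.090 to 0.0014 for SSBP1, -0.065 to 0.15 for CDC45, -0.046 to 0.0023 for ATR, -0.051 to 0.040 for TOP1, -0.078 to 0.022 for TOP3A and -0.058 to 0.15 for REV3L, and -0.091 to 0.070 for the change of the RFC2 to RFC4 ratio. The planned motif search in promoters was not run, since promoter sequences were not analysed here. POLE2, CDC6, ASPM and TTK had few counts with ATRA, so their fitted folds depend on the prior count.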

Other observations

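The genes on either side of each member in the goat reference ARS1.2 were examined as well, a choice made after the values were seen. Of 70 such neighbours of members placed on a chromosome, 44 were listed in the table and tested beside a tested member. Of these, 17 fell and 21 rose at an adjusted p under 0.05 (edgeR quasi-likelihood test), beside 38.7% and 40.9% of all genes, with a median log₂FC of 0.20. The log₂FC had the same sign as that of the member for 22 of the 44.

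MCM5, the member with the second-lowest log₂FC, lies next to HMOX1, which encodes heme oxygenase. HMOX1 had 42.3, 38.9 and 41.4 normalized CPM in the control libraries and 477, 463 and 479.7 in the ATRA libraries (log₂FC 3.53, SE 0.0612, adjusted p = 2.61e-19), and its ATRA libraries all lay above the control libraries. MCM4 lies next to PRKDC, the catalytic subunit of the DNA-dependent protein kinase, which rose with a log₂FC of 0.56 (SE 0.0806, adjusted p = 4.11e-06) while MCM4 fell by 2.94 on the log2 scale. POLD4, the member that rose most, lies next to CLCF1, a cytokine gene that had 22.8, 21.3 and 23.5 normalized CPM in the control libraries and 102, 84.998 and 94.4 in the ATRA libraries (log₂FC 2.06, SE 0.0774, adjusted p = 1.86e-14). The log₂FC of POLD4 was 2.05, and its other neighbour SSH3 fell with -0.90. Whether position bears on these values was not tested.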
